A study of Homo sapiens with 6 samples.

Results

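Chromatin in a cell is marked by methyl and acetyl groups that enzymes add to histones and DNA and that other enzymes take off again. The genes described here are 58 such writers and erasers together with a few subunits that do not catalyse but that the enzymes need: methyltransferases for lysines of histones H3 and H4, arginine methyltransferases, lysine demethylases, acetyltransferases, DNA methyltransferases and the TET dioxygenases. They were chosen by name, mapped from the gene numbers of the expression tables, and were compared between RBCK1-depleted and control cells class by class. All 58 were among the 17149 genes listed. Of them, 54 reached the level needed for testing, as did 11135 genes in all. KDM4C, KDM7A, TET1 and TET2 did not, with 0.94, 0.63, 0.13 and 0.31 FPKM in siRBCK1 cells, and 0.88, 0.53, 0.11 and 0.42 FPKM in siControl cells.

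RNA of MDA-MB-231 cells, an established triple negative breast cancer (TNBC) line, was sequenced 48 h after transfection with siRBCK1 (3 libraries) or siControl (3 libraries). RBCK1, also called HOIL-1, is a ubiquitin ligase of the linear ubiquitin chain assembly complex. The cells carried no other treatment. The study used different siRNAs against RBCK1, and the sources used here do not say which was sequenced, so an effect of the siRNA besides RBCK1 loss cannot be told apart. Nothing states that the replicates were separate cultures, and the p-values measure only the spread between these libraries.

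Histone methylation carries information by position. Methyl groups on H3K4 and H3K36 are found at active promoters and gene bodies, those on H3K9 and H3K27 at silent chromatin, and acetyl groups mostly at active genes. DNA methylation is kept up at replication by DNMT1 with its guide UHRF1, placed anew by DNMT3A and DNMT3B, and oxidised by the TET enzymes. Most of these enzymes have a close relative with the same substrate, so the balance between relatives is part of the description.

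The targeted gene was lower in the libraries labelled siRBCK1. RBCK1 had 41.53, 46.15 and 45.61 FPKM (fragments per kilobase of transcript, scaled to the mapped fragments of the library) in siRBCK1 cells, against 64.96, 63.62 and 73.37 FPKM in siControl cells. The groups did not overlap, and the mean of siRBCK1 cells was 66.0% of that of siControl cells (log2 fold change -0.59 ± 0.07 SE, adjusted p = 6.55e-05 by limma with Benjamini-Hochberg adjustment). Depth is unknown, since FPKM carry no read totals. The FPKM sums were 587248.4 to 594194.1 in siRBCK1 libraries and 614082.0 to 659065.0 in siControl libraries, and libraries of a group correlated at 0.9949 or more, against 0.9859 at most between groups. Over all tested genes the log2 fold change had a median of 0.11, and scaling the libraries by a trimmed mean moved it to -0.01, so that each fold change below is best read against 0.11. Of 6 markers of this mesenchymal line, VIM, AXL, MSN, CD44 and CAV1 were at 167.5 FPKM or more in every library and ZEB1 averaged 5.13 FPKM in siRBCK1 cells and 3.95 FPKM in siControl cells, with CAV1 and ZEB1 higher, CD44 lower and the others not past the test. Of 7 markers of luminal cells, ESR1, PGR, FOXA1 and CDH1 were at or near 0, whereas ERBB2 (18.2 FPKM in siRBCK1 cells and 13.0 FPKM in siControl cells, higher), EPCAM (8.19 FPKM in siRBCK1 cells and 7.36 FPKM in siControl cells, not past) and GATA3 (4.53 FPKM in siRBCK1 cells and 5.46 FPKM in siControl cells, not past) were expressed. Of the 14 markers of leukocytes, endothelium and fibroblasts looked for, 13 were listed, and their summed levels were 9.33 to 9.55 FPKM in siRBCK1 libraries and 8.21 to 8.45 FPKM in siControl libraries, mostly from CD14, which was lower (2.05 FPKM in siRBCK1 cells and 3.23 FPKM in siControl cells), and COL1A1, which was higher (5.86 FPKM in siRBCK1 cells and 3.97 FPKM in siControl cells).

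More of the chromatin genes were higher than lower after RBCK1 depletion. At an adjusted p under 0.05, 24 of the 54 tested members were higher in siRBCK1 cells (44.4%, against 36.8% of all tested genes), 1 was lower (1.85%, against 17.1%) and 29 did not pass the test. The higher share was near that of all genes and the lower share was smaller, and neither difference was tested. The log2 fold change was positive for 45 members and negative for 9, with a median of 0.21 and a range from -0.44 to 1.00. All 3 siRBCK1 values lay above all 3 siControl values for 31 members (42.7% of all tested genes did so) and below them for 5 (20.1% of all tested genes). Up to 3 members per class, picked for an adjusted p under 0.05 and no overlap, are given below with values per library. The separation of these members is therefore no further result. By the thresholds of an unadjusted p under 0.05 and a change over 1.5-fold on the log2(FPKM + 1) scale, 7 members were higher (5.88% of all tested genes were) and 0 were lower (2.63% of all). On this scale the change of a gene with low values is understated, and SETD7, NSD3 and KAT6A were also past 1.5-fold by their mean FPKM (1.62, 1.52 and 1.51 times the siControl mean). In bulk RNA, more RNA per cell and more cells expressing a gene cannot be told apart.

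These counts depended on the scaling between libraries. After trimmed-mean scaling, 17 members rose and 6 fell, with quantile normalization 19 and 8, and with the trend of each library on transcript length and GC content removed 21 and 5. Over all tested genes the same fits gave 2567 higher and 3044 lower, 2787 and 2703, and 2794 and 2812, compared with 4103 higher and 1899 lower genes when no scaling was applied. KDM5B was lower in each of these, and EHMT2, EP300 and KAT7 joined it in all 3. Of the 24 higher members, 16 were higher in all 15 alternative fits, or in all 14 where the gene fell below a stricter filter: DOT1L, KAT2A, KAT6A, KDM2A, KDM2B, KDM4B, KDM5C, KDM6B, NSD2, NSD3, PHF8, SETD1A, SETD7, SUV39H2, SUZ12 and UHRF1. The plot of fold changes by class shows them beside the members that did not pass.

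**Figure D1:**
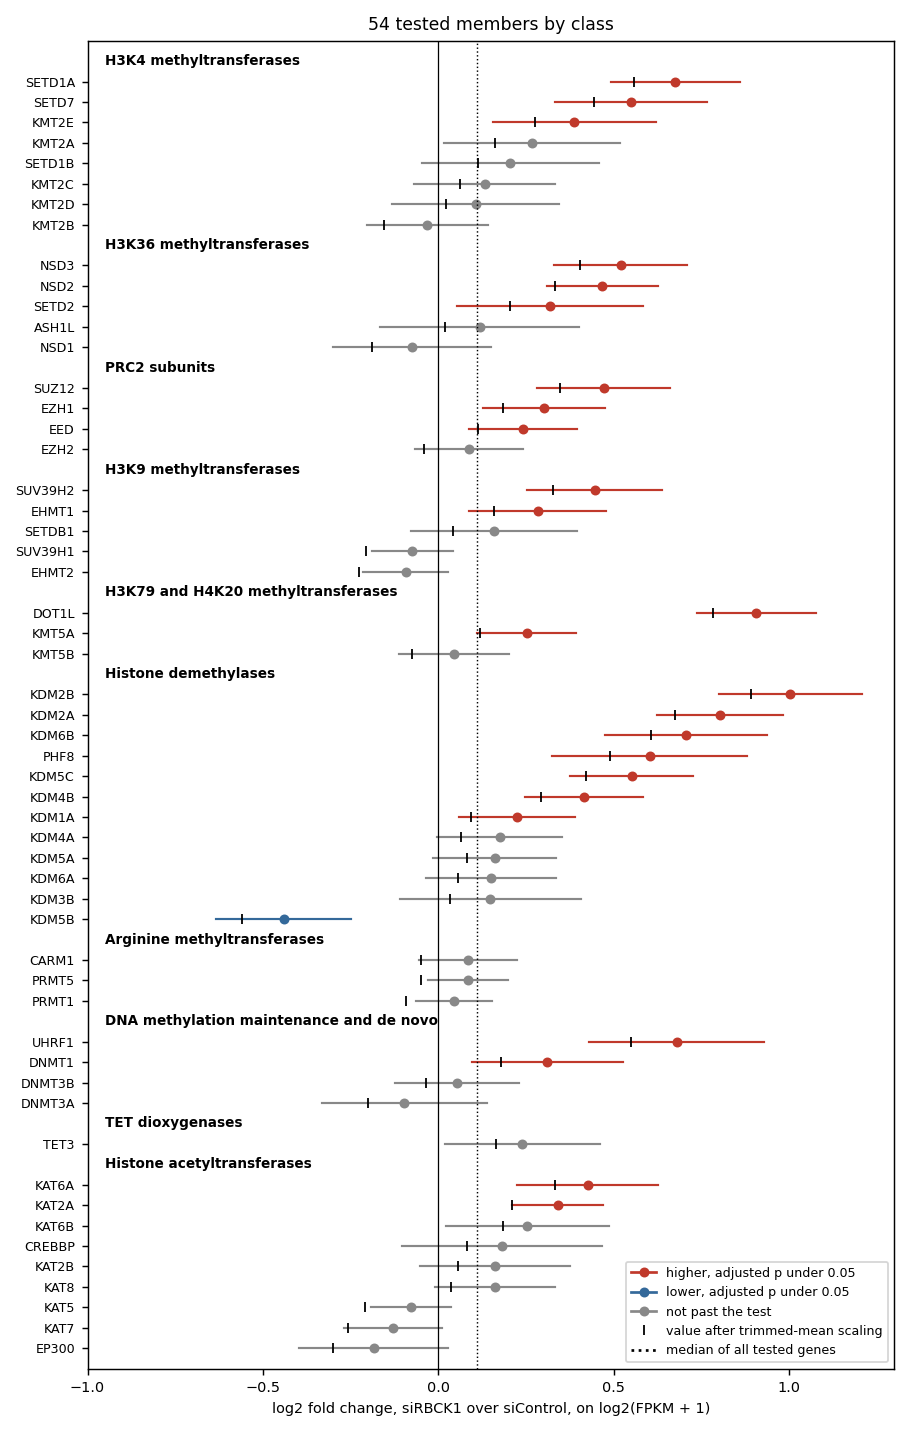
Log2 fold change of the 54 tested members, siRBCK1 over siControl on the log2(FPKM + 1) scale (x axis), by class (y axis). Points are fold changes with 95% confidence intervals from limma (3 libraries per group), coloured by whether the adjusted p was under 0.05, black ticks are values after trimmed-mean scaling, and the dotted line is the median of all tested genes (0.11). KDM2B (1.00) and DOT1L (0.91) lie farthest right and KDM5B (-0.44) is the only point coloured lower; EZH2, KMT5B, DNMT3B, PRMT1, PRMT5 and CARM1 have ticks on the other side of 0.

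Of the 8 genes for H3K4 methylation, 3 rose (37.5%, against 36.8% of all tested genes), 0 fell (17.1% of all) and 5 did not pass. Their median log2 fold change was 0.24. SETD1A, the catalytic subunit of a COMPASS complex that methylates H3K4 at promoters, had 9.42, 9.75 and 9.72 FPKM in siRBCK1 cells, against 5.70, 6.29 and 5.03 FPKM in siControl cells (log2 fold change 0.68 ± 0.08 SE, adjusted p = 0.000104). Each siRBCK1 library lay well above the highest siControl library. SETD7, which places a single methyl group on H3K4 and on several non-histone proteins, had 4.52, 4.68 and 4.42 FPKM in siRBCK1 cells, against 2.73, 3.33 and 2.36 FPKM in siControl cells (0.55 ± 0.10 SE, adjusted p = 0.00102). KMT2E, a relative of the MLL proteins for which no activity of its own is established, had 6.11, 5.03 and 5.31 FPKM in siRBCK1 cells, against 4.34, 4.30 and 3.27 FPKM in siControl cells (0.39 ± 0.11 SE, adjusted p = 0.0104). The groups of SETD7 and KMT2E were separate, as their choice required. KMT2E lost its call only when the length and GC trend was removed (adjusted p = 0.0524). The large MLL methyltransferases did not pass the test, with log2 fold changes of 0.27 for KMT2A, 0.13 for KMT2C, 0.11 for KMT2D and -0.03 for KMT2B, and nor did SETD1B, the relative of SETD1A, at 0.21. SETD1A was 3.75, 3.74 and 3.81 times as abundant as SETD1B in siRBCK1 libraries, against 2.57, 2.46 and 3.22 times in siControl libraries.

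The 5 genes for H3K36 methylation had 3 higher and 0 lower. Over all tested genes 36.8% were higher and 17.1% lower. NSD3, which dimethylates H3K36, had 7.24, 6.67 and 7.26 FPKM in siRBCK1 cells, against 4.32, 5.23 and 4.35 FPKM in siControl cells (0.52 ± 0.09 SE, adjusted p = 0.000636). NSD2, a relative with the same activity and the most abundant gene of the class, had 56.42, 55.78 and 58.51 FPKM in siRBCK1 cells, against 43.65, 43.21 and 36.24 FPKM in siControl cells (0.47 ± 0.07 SE, adjusted p = 0.000396). SETD2, the enzyme that places the trimethyl mark behind RNA polymerase II, had 6.66, 6.01 and 6.13 FPKM in siRBCK1 cells, against 5.10, 5.83 and 3.74 FPKM in siControl cells (0.32 ± 0.12 SE, adjusted p = 0.0444). The groups were separate for all 3, as their choice required, but for SETD2 by a narrow gap. The SETD2 call was kept in only 6 of 15 alternatives. NSD1 (-0.08) and ASH1L (0.12) did not pass, and ASH1L turned negative without siControl replicate 3 (-0.05), with quantile normalization (-0.01), with array weights (-0.02) and with the length and GC trend removed (-0.07).

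Polycomb repressive complex 2 (PRC2) methylates H3K27 through EZH1 or EZH2, held in the complex by EED and SUZ12. Of the 4 subunits, 3 were higher (75.0%, against 36.8% of all tested genes), 0 were lower (17.1% of all), and EZH2 was not past the test. SUZ12 had 17.58, 14.69 and 15.72 FPKM in siRBCK1 cells, against 11.82, 11.87 and 10.08 FPKM in siControl cells (0.47 ± 0.09 SE, adjusted p = 0.00109). EZH1 had 8.20, 7.18 and 8.08 FPKM in siRBCK1 cells, against 6.50, 6.06 and 5.89 FPKM in siControl cells (0.30 ± 0.08 SE, adjusted p = 0.0083), and EED had 16.22, 14.34 and 16.08 FPKM in siRBCK1 cells, against 13.05, 13.42 and 12.49 FPKM in siControl cells (0.24 ± 0.07 SE, adjusted p = 0.0138). None of the 3 overlapped between the groups, as their choice required. Of all tested genes, 42.7% had all siRBCK1 values above all siControl values. SUZ12 alone kept its call with trimmed-mean scaling, where EZH1 had an adjusted p of 0.0506 and EED of 0.158. EZH2, the more abundant catalytic subunit, had 25.62, 23.72 and 23.82 FPKM in siRBCK1 cells, against 22.19, 25.06 and 21.51 FPKM in siControl cells, values that overlapped (0.09, adjusted p = 0.302, and -0.04 with trimmed-mean scaling). The ratio of EZH1 to EZH2 was 0.320, 0.303 and 0.339 in siRBCK1 libraries, against 0.293, 0.242 and 0.274 in siControl libraries, so EZH2 stayed the larger of the pair in every library.

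The H3K9 class held relatives that did not move together. SUV39H2, which trimethylates H3K9 in heterochromatin, had 9.10, 8.17 and 8.69 FPKM in siRBCK1 cells, against 6.85, 5.99 and 5.48 FPKM in siControl cells (0.45 ± 0.09 SE, adjusted p = 0.00168). SUV39H1, its more abundant relative, had 32.60, 33.90 and 32.90 FPKM in siRBCK1 cells, against 34.16, 35.72 and 34.95 FPKM in siControl cells, all 3 values below all 3 but not past the test (-0.07, adjusted p = 0.249). EHMT1, part of the dimer that places the dimethyl mark, had 13.59, 13.98 and 15.24 FPKM in siRBCK1 cells, against 12.24, 12.53 and 9.99 FPKM in siControl cells (0.28 ± 0.09 SE, adjusted p = 0.0197). Its partner EHMT2 had 32.80, 31.01 and 30.54 FPKM in siRBCK1 cells, against 32.89, 34.43 and 33.50 FPKM in siControl cells (-0.09, adjusted p = 0.173). With trimmed-mean scaling EHMT1 was no longer past the test, and EHMT2 and SUV39H1 were among the lower members. A ratio of FPKM inside a library does not depend on a factor shared by all its genes, as in trimmed-mean scaling. Quantile normalization and removal of the length and GC trend can shift genes of the same library by different amounts. With the length and GC trend removed, the log2 fold change was 0.25 for SUV39H2 and -0.099 for SUV39H1. It was 0.22 for EHMT1 and -0.13 for EHMT2. The ratios below were taken from the FPKM without these steps. The ratio of SUV39H2 to SUV39H1 was 0.279, 0.241 and 0.264 in siRBCK1 libraries, against 0.201, 0.168 and 0.157 in siControl libraries, and that of EHMT1 to EHMT2 was 0.414, 0.451 and 0.499 in siRBCK1 libraries, against 0.372, 0.364 and 0.298 in siControl libraries. SETDB1 was at 0.16 and did not pass.

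DOT1L, the only known methyltransferase for H3K79, had the largest rise among the members after KDM2B and ranked 120 of the 11135 tested genes by log2 fold change. It had 15.22, 16.34 and 14.70 FPKM in siRBCK1 cells, against 7.64, 8.45 and 7.21 FPKM in siControl cells (0.91 ± 0.08 SE, adjusted p = 9.03e-06), or 1.99 times the siControl mean. The lowest siRBCK1 value was far above the highest siControl value. KMT5A, which places the first methyl group on H4K20, had 43.63, 40.48 and 41.67 FPKM in siRBCK1 cells, against 36.06, 37.01 and 32.24 FPKM in siControl cells (0.25 ± 0.06 SE, adjusted p = 0.00734), a call lost with trimmed-mean scaling (adjusted p = 0.107). KMT5B, which adds further methyl groups to H4K20, was at 0.04, did not pass, and turned to -0.08 with trimmed-mean scaling. DOT1L spans 2163933 to 2232578 of chromosome 19 (GRCh38).

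The demethylases held 4 of the 7 members past 1.5-fold and also the only lower member. Of 14, 12 were tested, with a median log2 fold change of 0.32. Of these, 7 were higher (58.3%, against 36.8% of all tested genes), 1 was lower (8.33%, against 17.1%) and 4 did not pass. KDM2B and KDM2A, which remove methyl groups from H3K36 and carry a CXXC zinc finger that binds CpG without methylation, led them. KDM2B had 7.87, 8.04 and 8.14 FPKM in siRBCK1 cells, against 3.37, 4.11 and 3.07 FPKM in siControl cells (1.00 ± 0.09 SE, adjusted p = 1.59e-05), and ranked 73 of all tested genes by log2 fold change. KDM2A had 27.55, 26.11 and 27.10 FPKM in siRBCK1 cells, against 15.23, 16.82 and 13.18 FPKM in siControl cells (0.80 ± 0.08 SE, adjusted p = 3.14e-05). Both rises were far larger than the spread inside either group, with means 2.28 and 1.79 times those of siControl cells. KDM6B, which removes the H3K27 mark that PRC2 places, had 3.76, 4.25 and 4.07 FPKM in siRBCK1 cells, against 2.41, 2.24 and 1.64 FPKM in siControl cells (0.71 ± 0.10 SE, adjusted p = 0.000315). PHF8, an H3K9 and H4K20 demethylase, had 7.25, 6.58 and 7.31 FPKM in siRBCK1 cells, against 4.72, 5.15 and 3.22 FPKM in siControl cells (0.60 ± 0.13 SE, adjusted p = 0.0025). Neither overlapped between the groups (42.7% of all tested genes had all siRBCK1 values above all siControl values). KDM6A, the relative of KDM6B on the same mark, was at 0.15 and did not pass, and the ratio of KDM6B to KDM6A was 1.49, 1.67 and 1.66 in siRBCK1 libraries, against 1.04, 0.987 and 0.863 in siControl libraries. KDM5C, described with its relatives below, KDM4B (0.42) and KDM1A (0.22) were higher too, KDM1A with a call that was kept in only 7 of 15 alternatives.

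The KDM5 enzymes remove methyl groups from H3K4, and they went different ways. KDM5B had 5.40, 4.91 and 6.06 FPKM in siRBCK1 cells, against 7.60, 8.33 and 7.33 FPKM in siControl cells (-0.44 ± 0.09 SE, adjusted p = 0.00184), or 70.4% of the siControl mean. All siRBCK1 values were below all siControl values, and the call was kept in 15 of 15 alternatives. KDM5C, picked for this comparison after its values were seen, had 24.62, 24.51 and 22.73 FPKM in siRBCK1 cells, against 15.87, 17.95 and 14.43 FPKM in siControl cells (0.55 ± 0.08 SE, adjusted p = 0.000268), again with no overlap. KDM5A was at 1.55 to 1.59 FPKM in siRBCK1 cells and 1.19 to 1.40 FPKM in siControl cells and did not pass (0.16, adjusted p = 0.11). KDM5C was 4.56, 4.99 and 3.75 times as abundant as KDM5B in siRBCK1 libraries, against 2.09, 2.15 and 1.97 times in siControl libraries. The promoters below were picked after the values were seen, those of KDM5C and KDM5B because these relatives moved in opposite directions, and that of KDM2A because its protein reads the very dinucleotide in capitals. Each is a window of 300 bases, from 250 bases before the start of transcription to 50 after it, read from RefSeq (GRCh38.p14) on the strand of the gene, with every CG in capitals. KDM2A had 2 windows and KDM5C and KDM5B 1 each. For genes with several, here and in the counts below, the window farthest upstream was used. KDM2A lies at chr11:67119013-67119312 on the plus strand (44 CG), KDM5C at chrX:53225158-53225457 on the minus strand (22 CG) and KDM5B at chr1:202808372-202808671 on the minus strand (34 CG).
KDM2A: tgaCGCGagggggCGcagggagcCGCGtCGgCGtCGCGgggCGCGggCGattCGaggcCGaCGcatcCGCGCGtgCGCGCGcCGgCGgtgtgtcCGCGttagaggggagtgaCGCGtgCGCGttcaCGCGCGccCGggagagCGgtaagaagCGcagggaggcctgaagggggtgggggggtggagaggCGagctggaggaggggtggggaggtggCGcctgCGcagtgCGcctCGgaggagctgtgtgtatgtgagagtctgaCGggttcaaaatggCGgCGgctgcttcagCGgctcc
KDM5C: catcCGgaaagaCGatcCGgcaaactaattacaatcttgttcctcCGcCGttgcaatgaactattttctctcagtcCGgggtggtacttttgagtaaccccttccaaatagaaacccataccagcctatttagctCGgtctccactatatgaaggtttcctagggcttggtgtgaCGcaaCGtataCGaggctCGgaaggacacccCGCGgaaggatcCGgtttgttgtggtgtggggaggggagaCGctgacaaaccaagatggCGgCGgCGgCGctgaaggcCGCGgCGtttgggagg
KDM5B: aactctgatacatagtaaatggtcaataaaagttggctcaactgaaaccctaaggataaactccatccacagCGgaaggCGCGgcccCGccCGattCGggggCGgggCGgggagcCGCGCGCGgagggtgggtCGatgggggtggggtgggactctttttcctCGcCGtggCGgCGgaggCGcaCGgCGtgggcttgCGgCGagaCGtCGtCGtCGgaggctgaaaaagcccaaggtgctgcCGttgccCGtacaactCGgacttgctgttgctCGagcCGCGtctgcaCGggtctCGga
The KDM2A window held more CG than 92.7% of the 9211 windows of tested genes, KDM5B more than 72.1% and KDM5C more than 32.5%. Over the 49 tested members with an entry, the median was 30 CG, against 27 over all 9211, and it was 30 in the 21 that rose and 29 in the other 28. The GC box GGGCGG, on either strand, was in 67.3% of members and 71.6% of all windows. The TEAD motif GGAATG was in 8.16% of members and 10.8% of all, and the E box CACGTG, a palindrome, in 16.3% of members and 10.5% of all. None of these motifs contains another. A match describes the letters of the window only.

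**Figure D2:**
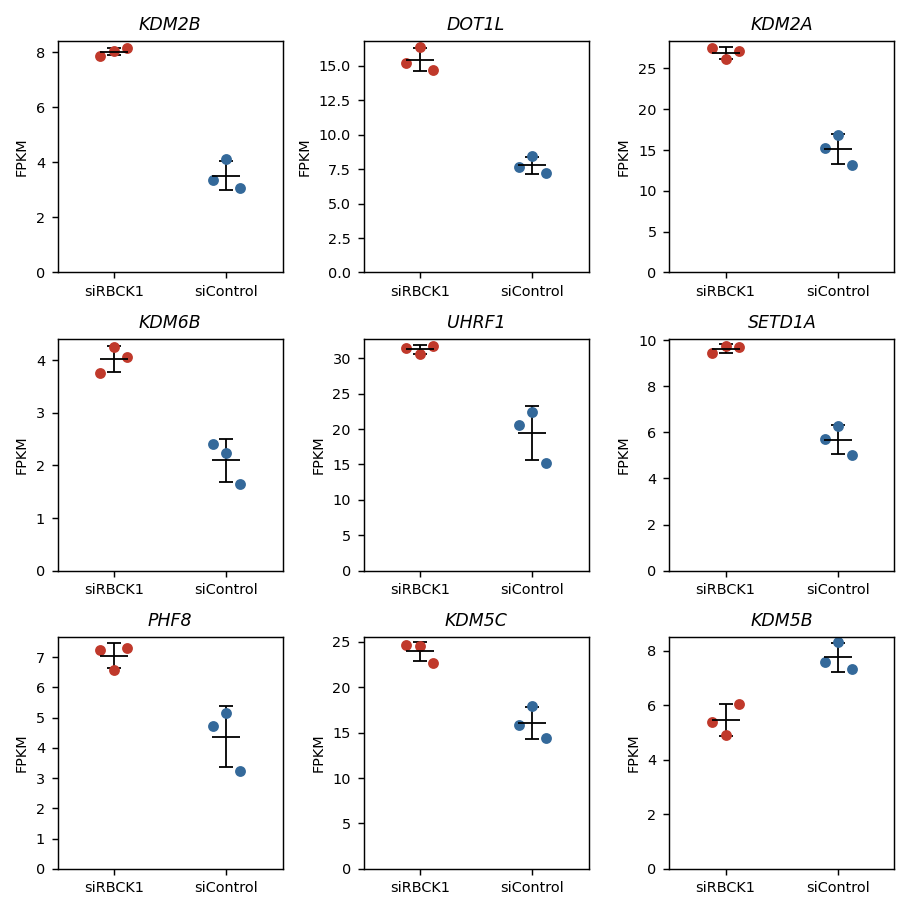
FPKM (y axis, from 0) of the 7 members past 1.5-fold on the log2(FPKM + 1) scale and of KDM5C and KDM5B in each library, siRBCK1 left and siControl right in each panel. Points are libraries and bars the mean ± SD of 3 libraries. The groups do not overlap in any panel, siRBCK1 cells are higher in 8 panels and lower for KDM5B, and siControl replicate 3 (right-most blue point) is the lowest siControl library in all 9.

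The genes that keep up DNA methylation were higher, and those that place it anew did not pass the test. UHRF1, which brings DNMT1 to hemimethylated DNA, had 31.47, 30.60 and 31.80 FPKM in siRBCK1 cells, against 20.63, 22.46 and 15.16 FPKM in siControl cells (0.68 ± 0.11 SE, adjusted p = 0.000651). DNMT1 had 40.77, 39.86 and 40.63 FPKM in siRBCK1 cells, against 33.64, 37.51 and 26.91 FPKM in siControl cells (0.31 ± 0.10 SE, adjusted p = 0.0199). The siRBCK1 libraries lay close together for both and the siControl libraries far apart, with siControl replicate 3 lowest. The call of DNMT1 was kept in 11 of 15 alternatives and that of UHRF1 in 15 of 15. DNMT1 lost its call with trimmed-mean scaling (adjusted p = 0.11), with quantile normalization (adjusted p = 0.0521), with no filter and without siRBCK1 replicate 3. DNMT3A was at 3.11 ± 0.54 FPKM in siRBCK1 cells and 3.37 ± 0.29 FPKM in siControl cells, and DNMT3B at 2.02 ± 0.05 FPKM in siRBCK1 cells and 1.91 ± 0.15 FPKM in siControl cells (SD, n = 3 each). TET3 was the only TET gene tested, with 1.46 to 1.51 FPKM in siRBCK1 cells and 0.82 to 1.29 FPKM in siControl cells (0.24, adjusted p = 0.0639). UHRF1, DNMT1, EZH2 and SUV39H1 are known to follow the cell cycle, and of these EZH2 (0.09) and SUV39H1 (-0.07) did not pass the test. Of 14 proliferation markers, 8 were higher (57.1%, against 36.8% of all tested genes), namely PCNA, TOP2A, MCM2, MCM3, MCM6, MCM7, RRM2 and TYMS. The 3 lower markers (21.4%, against 17.1% of all) were CCNB1, CDK1 and MCM4, and MKI67, CCNA2 and MCM5 did not pass. The summed level of the 14 markers was 1242.3 to 1266.8 FPKM in siRBCK1 libraries and 979.9 to 1046.0 FPKM in siControl libraries. The part of these markers in the values of UHRF1, DNMT1, EZH2 and SUV39H1 was not tested.

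Of 9 acetyltransferases, 2 were higher (22.2%, against 36.8% of all tested genes) and 0 lower (17.1% of all). Of 3 arginine methyltransferases none passed the test. KAT2A, the catalytic subunit of SAGA and ATAC, had 33.58, 35.63 and 34.61 FPKM in siRBCK1 cells, against 26.94, 28.69 and 25.81 FPKM in siControl cells (0.34 ± 0.06 SE, adjusted p = 0.000852). KAT6A, which acetylates H3 in a complex with BRPF1, had 3.04, 2.86 and 2.95 FPKM in siRBCK1 cells, against 1.94, 2.25 and 1.66 FPKM in siControl cells (0.43 ± 0.09 SE, adjusted p = 0.00288). The groups of both were separate, as their choice required. EP300 (-0.18), KAT7 (-0.13) and KAT5 (-0.08) did not pass here but were lower with trimmed-mean scaling. CREBBP, the relative of EP300, was at 0.18 and did not pass, and the ratio of CREBBP to EP300 was 0.570, 0.619 and 0.591 in siRBCK1 libraries, against 0.453, 0.479 and 0.359 in siControl libraries. KAT2B (0.16), KAT6B (0.25) and KAT8 (0.16) did not pass either. PRMT1, which places asymmetric dimethyl marks on arginine and was the most abundant member of all, had 297.73, 302.16 and 281.77 FPKM in siRBCK1 cells, against 280.32, 284.15 and 290.39 FPKM in siControl cells. These values overlapped (0.04, adjusted p = 0.467). With trimmed-mean scaling PRMT1 was at -0.09 and not past the test, but it was called higher with quantile normalization (0.16, adjusted p = 0.0116) and with the length and GC trend removed (0.12, adjusted p = 0.0232). PRMT5 (0.08) and CARM1 (0.08) overlapped too and turned to -0.05 each with trimmed-mean scaling.

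**Figure D3:**
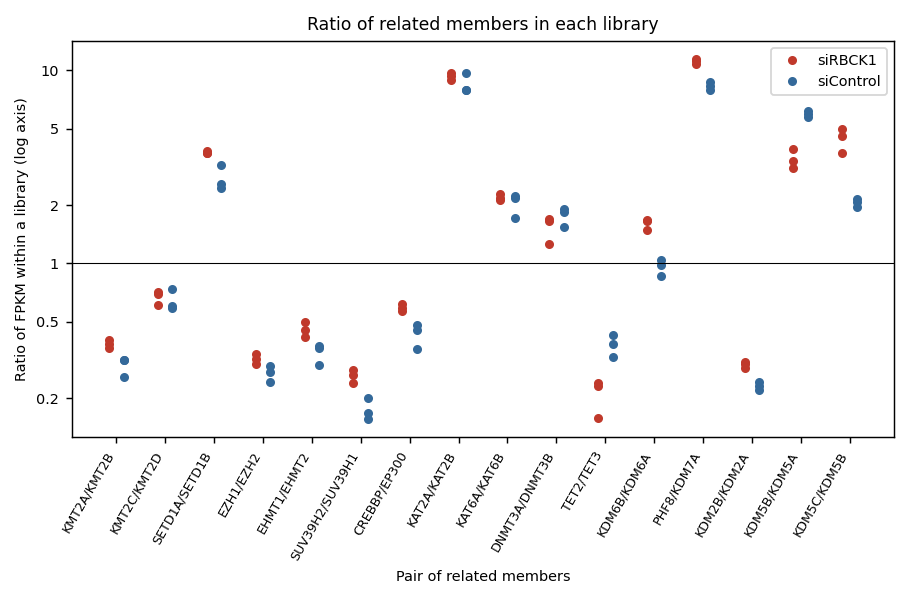
Ratio of the FPKM of related members inside each library (log y axis), for 15 pairs and for KDM5C to KDM5B (x axis, right end), siRBCK1 left and siControl right. Points are libraries. The groups overlap for KMT2C to KMT2D, KAT2A to KAT2B, KAT6A to KAT6B and DNMT3A to DNMT3B. How often ratios of other gene pairs separate was not examined. TET2 and KDM7A were below the level needed for testing, so the ratios of TET2 to TET3 and PHF8 to KDM7A rest on low values. KDM5B to KDM5A is lower in siRBCK1 libraries (3.11 to 3.91) than in siControl libraries (5.76 to 6.16).

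Among partner subunits and the remaining enzymes of the same processes, chosen by role, 105 of 110 genes were tested, 43 were higher (41.0%, against 36.8% of all tested genes) and 13 lower (12.4%, against 17.1%), with a median log2 fold change of 0.16 (0.11 over all). Of 11 subunits shared by COMPASS complexes, 5 were higher (45.5%), among them PSIP1 (0.50), RBBP5 (0.46) and WDR5 (0.45), and 0 were lower. Of 8 accessory subunits of PRC2, 5 were higher (62.5%) and 0 lower. JARID2, which helps PRC2 find its sites, averaged 8.87 ± 0.45 FPKM in siRBCK1 cells and 4.18 ± 0.88 FPKM in siControl cells (SD, n = 3 each, log2 fold change 0.94, adjusted p = 0.000104 by limma), and RBBP4 (0.48) and AEBP2 (0.48) were higher too. PRMT6, which places asymmetric dimethyl marks on histone arginines, had the largest rise of any histone-modifying enzyme in these lists, with 7.48 ± 0.59 FPKM in siRBCK1 cells and 2.37 ± 0.51 FPKM in siControl cells (SD, n = 3 each, 1.34, adjusted p = 8.68e-06 by limma). Of the 15 tested genes of its list, 4 were higher (26.7%), SETD5 (0.50) and PRMT3 (0.44) among them, and 1 was lower (6.67%). Among 8 further demethylases 5 were higher (62.5%), led by JMJD1C (0.62), PHF2 (0.44) and RIOX1 (0.39), and 1 was lower (12.5%). Of 24 further acetyltransferases and scaffolds, 8 were higher (33.3%) and 3 lower (12.5%). The rises were led by BRPF1 (0.72), MSL2 (0.71) and ING5 (0.57), subunits of complexes with KAT6A, KAT8 and KAT7 among others.

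Of 17 genes of the HDAC and sirtuin families, listed as deacetylases, 7 were higher (41.2%) and 4 lower (23.5%). Over all tested genes 36.8% were higher and 17.1% lower. HDAC1 averaged 88.0 ± 1.21 FPKM in siRBCK1 cells and 52.8 ± 1.93 FPKM in siControl cells (SD, n = 3 each, log2 fold change 0.73, adjusted p = 2.17e-06 by limma), HDAC2 was at 0.53 and SIRT5 at 0.47. The 4 lower genes, named after their values were seen, were the sirtuins SIRT1 (-0.22), SIRT2 (-0.27), SIRT6 (-0.37) and SIRT7 (-0.31). Of 9 methyl-CpG readers and excision partners, 4 were higher (44.4%) and 1 lower (11.1%). TDG, the glycosylase that excises the products of the TET enzymes, averaged 16.9 ± 0.72 FPKM in siRBCK1 cells and 6.73 ± 0.55 FPKM in siControl cells (SD, n = 3 each, 1.21, adjusted p = 9.95e-07 by limma), ZBTB4 was at 0.49, and APOBEC3B, a cytidine deaminase, was lower (-0.31). Of 13 genes that supply or use the cofactors, 5 were higher (38.5%) and 3 lower (23.1%). NNMT, which spends S-adenosylmethionine on nicotinamide, was higher (0.81), and MAT2B, the regulatory subunit of the enzyme that makes S-adenosylmethionine, and AHCYL1, a relative of the enzyme that clears its product, were lower (-0.73 and -0.66).

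The members had long transcripts. The median transcript of the tested members was 6000 nt long, against 3050 nt over all tested genes, and across 11074 genes of these same 6 libraries length and log2 fold change had a Spearman rho of 0.24, against 0.00 across the 54 members. Of the 10 members of 6 to 8 kb, 9 were higher (90.0%, against 43.0% of all genes of that length), and 8 still were with the length and GC trend removed. Of the 17 of 8 kb and over, 3 were higher (17.6%, against 43.8%), namely NSD3, KAT6A and SETD2, and KDM5B was lower. The shorter classes held 6 of 13 members of 4 to 6 kb (46.2%, against 45.5%) and 6 of 12 of 2 to 4 kb (38.7% of all genes of that length), and of the 2 members under 2 kb 0 were higher (23.7% of all). Within the siControl group, replicate 3 was the lowest library for 46 of the 54 members (85.2%), as it was for 53.7% of all tested genes. Without it, 22 members were higher and 2 lower, EP300 being the second, and the median log2 fold change was 0.13.

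**Figure D4:**
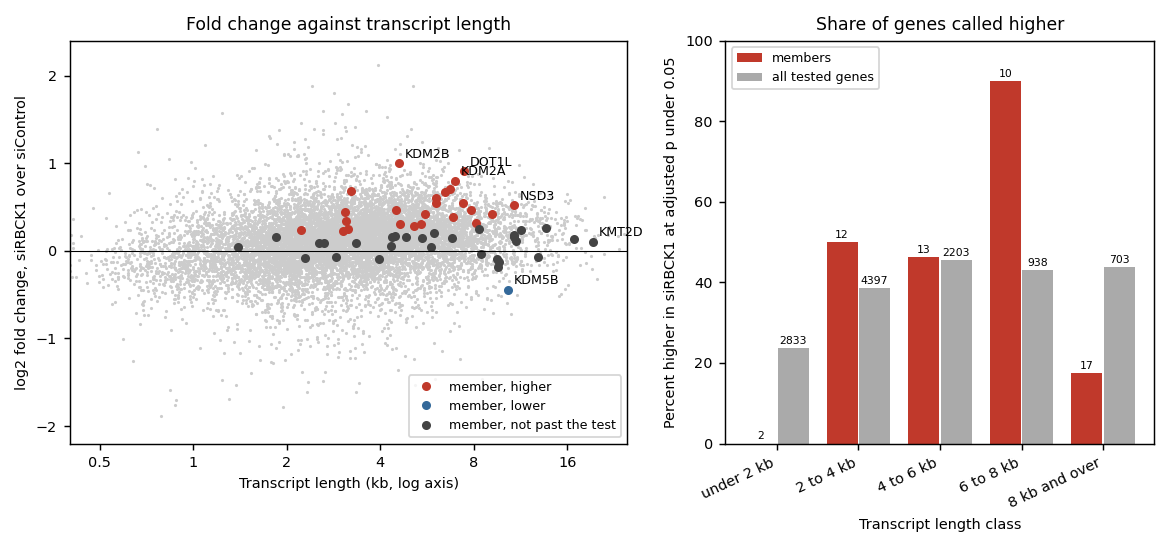
Left, log2 fold change of each tested gene, siRBCK1 over siControl (y axis), against transcript length in kb (log x axis), with all genes in grey and members coloured by call. Right, percent of members (left bar) and of all tested genes (right bar) higher at an adjusted p under 0.05 in each length class, with the number of genes above each bar; the members of 6 to 8 kb (90.0%) stand above and those of 8 kb and over (17.6%) below the genes of their length (43.0% and 43.8%).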

How the data were processed

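RNA of 3 siRBCK1 and 3 siControl libraries of MDA-MB-231 cells was sequenced on the BGI platform. The authors deposited FPKM values per gene number, and their notes name the build GRCh38; no source used here names the aligner, counter or annotation. Gene numbers were matched to symbols through RefSeq (17022 of 17149). The table of siRBCK1 replicate 2 carries the name of replicate 1 in its header, but only 3.03% of its values equal those of replicate 1, against 5.04% for replicates 1 and 3, so it stayed a separate library. From the FPKM, log2(FPKM + 1) was tested for genes at 1 FPKM or more in 3 or more libraries, using limma 3.58.1 in R 4.3.3 (intensity trend, two-sided, Benjamini-Hochberg adjustment over 11135 genes, call at 0.05). The fit was tested on simulated data. Transcript length and GC content came from the principal transcripts of GENCODE. Alternatives were pseudocount, filter, scaling, array weights, trend, length and GC, replicate block and each library left out. Members, lists and length classes were chosen with earlier results of these data known. Named with values per library were up to 3 called members per class without overlap, lower members and those past 1.5-fold, and up to 3 genes per other list. Outside this rule, values per library were also given for KDM5C and for EZH2, SUV39H1, EHMT2 and PRMT1, which were not called. The 4 lower sirtuins were named outside it too.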

Additional observations from a re-analysis of the deposited data

How the results depend on the processing

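With trimmed-mean scaling 2567 genes were higher and 3044 lower (4103 and 1899 without it), 17 members higher and 6 lower (24 and 1), and the members' median was 0.10 (0.21). The members' median was 0.11 with quantile normalization (8 lower members; 2787 genes higher and 2703 lower) and 0.11 with the length and GC trend removed (5 lower members; 2794 genes higher and 2812 lower). With an unadjusted p under 0.05 and over 1.5-fold, 655 genes were higher and 293 lower, with 7 members higher and 0 lower. Array weights gave 2 lower members. By class, higher members were 1 of PRC2 with each of the 3 scalings (3 in the main analysis), 1 for H3K9 with quantile, trimmed-mean or no filter (2), 1 for H3K79 and H4K20 with trimmed-mean (2), and 1 for DNA methylation with quantile, trimmed-mean or no filter (2). Arginine methyltransferases had 1 higher with quantile, array weights or the length and GC trend removed (0), TET genes had 1 with no intensity trend (0), and acetyltransferases had 1 with the 5 FPKM filter, 3 with length and GC removed and 4 with array weights (2). H3K36 had 2 higher with each of the 3 scalings or no filter (3), and H3K4 had 2 with the 5 FPKM filter or length and GC removed (3). Demethylases had 6 with each of the 3 scalings, no filter or the 5 FPKM filter and 8 with array weights (7). Lower members, 0 in the main analysis in these classes, were 1 for H3K4 with quantile, 1 for H3K36 with quantile or length and GC removed, 2 for H3K9 with quantile or trimmed-mean and 1 with length and GC removed, and for acetyltransferases 3 with quantile or trimmed-mean, 2 with length and GC removed and 1 with array weights.

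With each library left out in turn, 19 to 28 members were higher and 1 to 2 lower. By class the higher members were 3 to 5 for H3K4, 2 to 3 for H3K36, 2 to 3 for PRC2 and 1 to 2 for H3K9. They were 6 to 7 for demethylases, 1 to 2 for DNA methylation, 0 to 1 for TET genes and 2 to 4 for acetyltransferases, with 0 to 1 acetyltransferases lower. The fewest higher members came without siRBCK1 replicate 3, where DNMT1, EED, EHMT1, KDM1A and SETD2 lost their call, and the most without siControl replicate 2.

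The members whose sign turned had not passed the test. Quantile normalization gave KMT2D -0.029, ASH1L -0.0127, EZH2 -0.0145, SETDB1 -0.0105, KMT5B -0.1114, KDM3B -0.0175 and DNMT3B -0.0873. Trimmed-mean scaling gave EZH2 -0.0422, KMT5B -0.0754, PRMT1 -0.0913, PRMT5 -0.0489, CARM1 -0.0483 and DNMT3B -0.0363. Removing the length and GC trend gave KMT2C -0.0397, ASH1L -0.0691, EZH2 -0.0687, KMT5B -0.1712, KDM3B -0.0023, KDM5A -0.0327, KDM6A -0.0569, PRMT5 -0.006, DNMT3B -0.0484 and KAT2B -0.0336, and array weights gave ASH1L -0.0184. Leaving out libraries gave ranges of -0.1031 to 0.0134 for KMT2B, -0.0105 to 0.1946 for KMT2D, -0.1577 to 0.0343 for NSD1, -0.0528 to 0.2147 for ASH1L and -0.1579 to 0.0158 for DNMT3A. The cause of these shifts was not tested.

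The values gave no sign that the replicate numbers pair the samples. The deviations of same-numbered libraries correlated at -0.06, -0.187 and -0.038, and no library correlated best with its own number. With 3 libraries per group, such values cannot exclude that the libraries were prepared in pairs. With the replicate number as a block, 3812 genes were higher and 1739 lower, and the same 24 members were higher and the same 1 lower. Depth is unknown, so it does not enter the precision of low members such as KMT2C, KDM5A and TET3. That precision rests on 3 libraries per group and on the spread of other genes, which limma shares between genes.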
